A study of Oryctolagus cuniculus with 6 samples.

Results

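Genes of 7 proteins of the tear film and of exocrine secretions were followed in rabbit conjunctiva: PIP, LOC103347214 (an odorant-binding protein-like gene), LTF (lactoferrin), LCN2, LYZ (lysozyme), DMBT1 and PIGR. They were taken as the probe sets whose only listed gene symbol is one of these names, with the highest mean over 6 arrays where a name had several. All 7 were measured, among 15587 genes with such a probe set, on 8 of the 15795 probe sets with 1 symbol among 23364 in all. The genes were chosen with their difference between the groups already known, so that difference is given here as a description, and where a gene is said to pass the threshold of the fit over all probe sets, that is no independent test of it.

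The data comprise 3 arrays of rabbits with dry eye disease (DED) and 3 arrays of naive rabbits, each hybridized with RNA pooled over several animals (3 animals, 6 eyes, by the deposited record, and fewer by the methods of the paper). All were adult male Dutch Belted rabbits whose nictitating membranes had been removed. In the DED group, concanavalin A (ConA), a T-cell-activating lectin of plant origin, was given by injection into the lacrimal glands around the orbit on days 1, 8 and 14, and tissue was taken on day 18, whereas naive rabbits were healthy and received no ConA. The sample was full-thickness conjunctiva with Tenon's capsule and not the lacrimal gland itself, so RNA of epithelium, stroma, vessels, resident immune cells and any glandular tissue entered each value. In such bulk tissue, fewer cells of a type and less RNA per cell cannot be told apart.

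Tears are made largely by the lacrimal glands, with contributions from goblet cells and surface epithelium. Many of their proteins defend the ocular surface against microbes: some starve bacteria of iron, some cut their cell walls, some clump them, and secretory IgA is carried into tears across the epithelium. Others, such as lipocalins, bind small hydrophobic molecules.

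The values are log2 signals made by the authors with the Robust Multi-chip Analysis (RMA) algorithm, in which the arrays share nearly the same distribution, with medians of 6.18 to 6.2. A difference of 1 on this scale is a doubling of signal. Arrays correlated at r = 0.9938 to 0.9947 within a group and at 0.9883 to 0.9902 between groups, over probe sets that are no independent replicates. No array stood apart. Epithelial genes of conjunctiva were measured at 11.30 ± 0.08 in DED and 10.88 ± 0.06 in naive for KRT4, a keratin of mucosal surfaces, and at 10.99 ± 0.02 in DED and 10.51 ± 0.03 in naive for MUC4, a membrane mucin (SD, n = 3). Both come from a list of 12 measured epithelial genes that moved both ways, with a median difference (DED minus naive) of -0.06. KRT18 of that list differed by -1.26. Whether a probe set stood above background on an array was not given with the values.

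The 7 genes divided into 4 that were lower and 3 that were higher in DED. PIP, LOC103347214, LTF and LCN2 were lower, with log2 differences (DED minus naive) of -4.63, -4.19, -1.54 and -1.18, and LYZ, DMBT1 and PIGR were higher, by 0.27 to 0.37. In all 7 genes the DED and naive arrays were fully separate, as they were in 27.8% of all probe sets (13.4% with DED higher and 14.5% with DED lower). In the limma fit over all probe sets, all 7 had an adjusted p under 0.05, as did 7.1% of probe sets, 4 of them lower, where 2.69% of all probe sets passed as lower, and 3 higher, where 4.41% passed as higher. Since these genes were picked on the same contrast, nothing is read from the counts. In each of the 6 fits without 1 array, the 4 lower genes passed, and of the 3 higher genes DMBT1 did, while LYZ and PIGR did not.

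**Figure D1:**
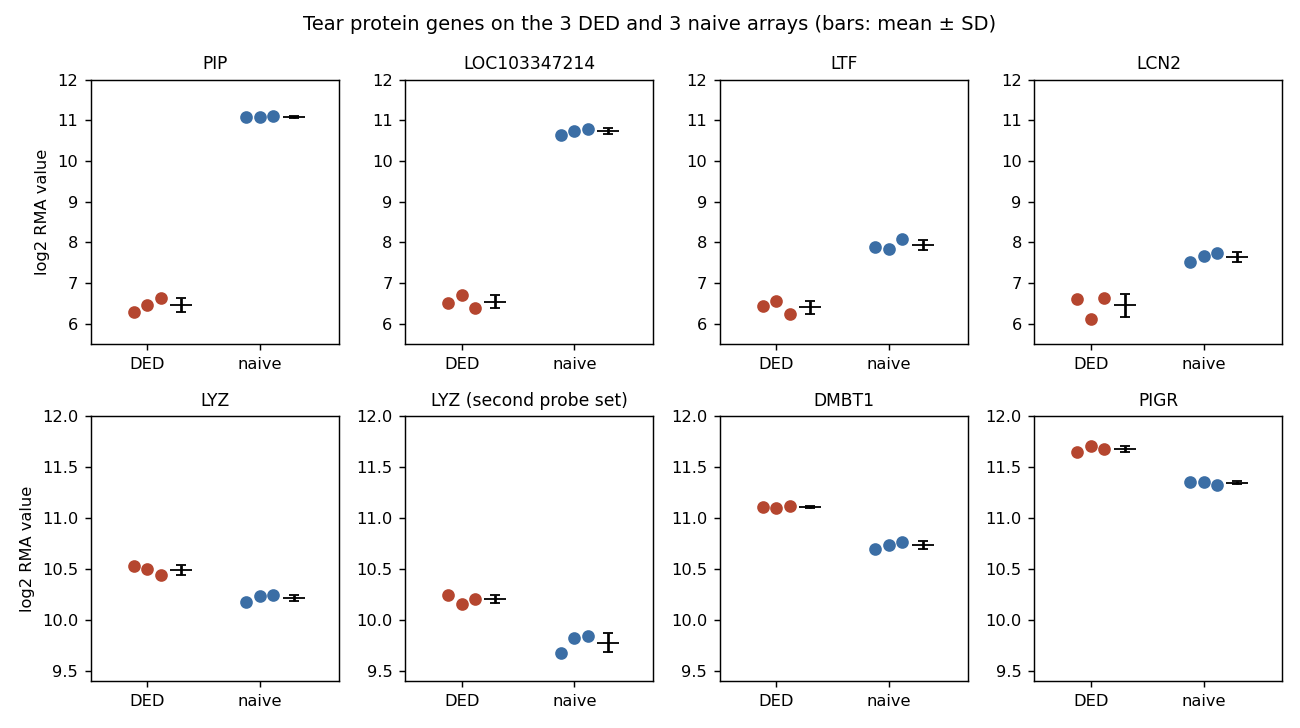
Log2 RMA values (y axis) of the 7 genes, with both LYZ probe sets, on the 3 DED arrays (red, left) and the 3 naive arrays (blue, right) of each panel, with the mean and SD as black bars. The lower row has a finer scale than the upper one, and in each panel the groups are apart, lower in DED in the upper row and higher in DED in the lower row.

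PIP encodes prolactin-inducible protein, a small glycoprotein of tears, saliva and other exocrine fluids. It was measured at 6.28, 6.47 and 6.63 on the DED arrays, against 11.08, 11.08 and 11.12 on the naive arrays. The naive arrays lay within a few hundredths of each other, while the DED arrays were all far below them and more scattered. The means were 6.46 ± 0.18 in DED and 11.09 ± 0.02 in naive (SD, n = 3), a difference of -4.63 (standard error 0.09), so that the signal in DED was 4.03% of that in naive, or 24.8-fold lower. Single DED and naive arrays differed by -4.84 to -4.45. No other probe set with 1 symbol moved as far in either direction.

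LOC103347214, a gene annotated as odorant-binding protein-like, belongs by that name to the lipocalins, which carry hydrophobic ligands in nasal mucus and other secretions. Its values were 6.51, 6.71 and 6.40 in DED, against 10.65, 10.75 and 10.79 in naive. All DED arrays lay at least 3.94 below every naive array. The means were 6.54 ± 0.16 in DED and 10.73 ± 0.07 in naive (SD, n = 3), and the difference of -4.19 (standard error 0.09) left 5.48% of the naive signal, 18.3-fold lower. Of the 15795 probe sets with 1 symbol it had the second largest difference in either direction, after PIP.

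LTF encodes lactoferrin, an iron-binding protein of the transferrin family that lacrimal acini secrete and that neutrophils store in granules. It stood at 6.43, 6.55 and 6.24 in DED, against 7.90, 7.85 and 8.09 in naive. The groups were separated by 1.30, more than the range within either group. The means were 6.41 ± 0.16 in DED and 7.95 ± 0.13 in naive (SD, n = 3), with a difference of -1.54 (standard error 0.10), or 2.91-fold lower. Among probe sets with 1 symbol, 35 moved at least as far in either direction, LTF included.

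LCN2 encodes lipocalin 2, which withholds iron from bacteria by binding their siderophores and is made both by epithelia and by neutrophils. Its values were 6.62, 6.13 and 6.63 in DED, against 7.51, 7.66 and 7.75 in naive. The second DED array lay below the other two, which were nearly equal, and even the highest DED value was 0.88 below the lowest naive value. The means were 6.46 ± 0.29 in DED and 7.64 ± 0.12 in naive (SD, n = 3), with a difference of -1.18 (standard error 0.15), or 2.27-fold lower. Without the second DED array the difference was -1.01, and with any other array left out it reached -1.26 at most. It was the most scattered of the 7 genes in DED.

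LYZ encodes lysozyme C, which cleaves the peptidoglycan of bacterial walls and is made by glands and by macrophages. The probe set that represents it stood at 10.53, 10.50 and 10.44 in DED, against 10.18, 10.23 and 10.24 in naive. Every DED array was above every naive array, by 0.20 to 0.35. The means were 10.49 ± 0.05 in DED and 10.22 ± 0.03 in naive (SD, n = 3), a difference of 0.27 (standard error 0.06), or 1.21-fold higher. A second probe set carries the symbol LYZ under another Entrez identifier, and only this second one is listed as LYZ in the RefSeq table. It was measured at 10.24, 10.16 and 10.21 in DED, against 9.67, 9.82 and 9.84 in naive, a difference of 0.43 (standard error 0.07). Both lysozyme probe sets thus lay higher in DED on all 3 arrays, the second by more. The paper, in its list of human tear biomarkers, instead gives lysozyme C as lower in rabbits with DED. Which probe set its value came from was not determined. Whether the probes of both sets tell near-identical lysozyme copies apart is not given, so their values may share signal.

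DMBT1 encodes a large secreted scavenger receptor cysteine-rich protein, known in saliva as agglutinin, that binds and clumps bacteria. It was at 11.11, 11.10 and 11.12 in DED, against 10.70, 10.74 and 10.77 in naive. The DED arrays were nearly identical, and all lay 0.33 to 0.42 above the naive arrays. The means were 11.11 ± 0.01 in DED and 10.74 ± 0.04 in naive (SD, n = 3), a difference of 0.37 (standard error 0.05), or 1.3-fold higher.

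PIGR encodes the polymeric immunoglobulin receptor, which carries dimeric IgA through epithelial cells and is cut at the surface to release secretory component. It was at 11.65, 11.71 and 11.68 in DED, against 11.36, 11.36 and 11.33 in naive. The 3 DED arrays again lay above all 3 naive arrays. The means were 11.68 ± 0.03 in DED and 11.35 ± 0.02 in naive (SD, n = 3), a difference of 0.33 (standard error 0.05), or 1.26-fold higher. Differences of the size of those of LYZ, DMBT1 and PIGR were common: 2235, 1158 and 1521 of the probe sets with 1 symbol moved at least as far in either direction. Of the 843 probe sets with a mean of at least 10, as all 3 of these genes have, 15.1% passed the test as higher and 6.29% as lower, with a median difference of 0.02.

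**Figure D2:**
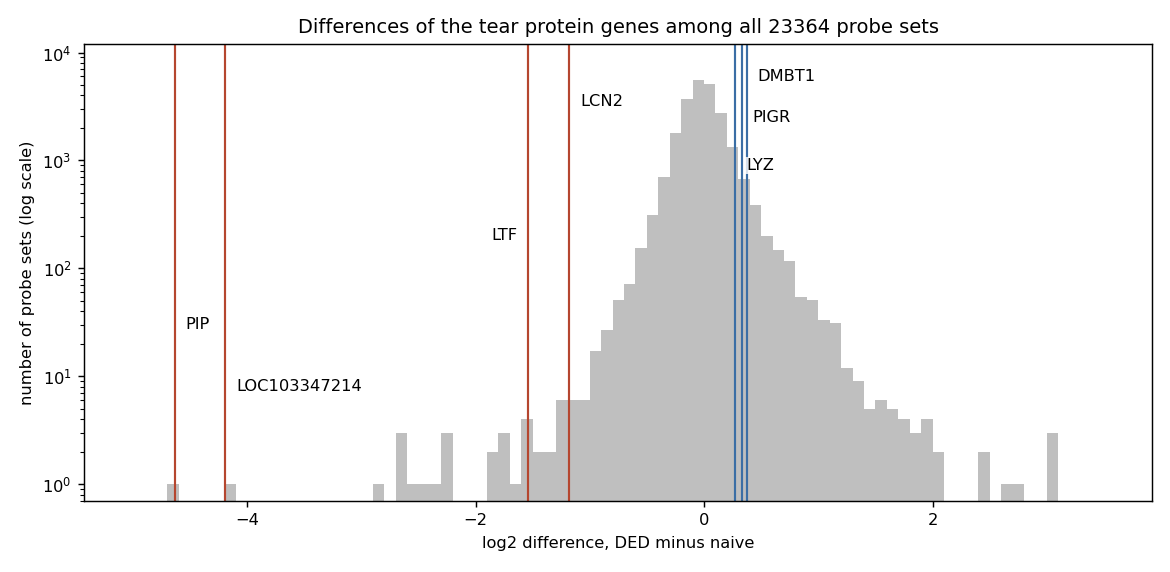
Number of probe sets (y axis, log scale) by log2 difference, DED minus naive (x axis), for all 23364 probe sets, with a line at each of the 7 genes (red, lower in DED; blue, higher). PIP at -4.63 and LOC103347214 at -4.19 stand beyond all other probe sets with 1 symbol, LTF and LCN2 lie in the lower tail, and LYZ, PIGR and DMBT1 lie at the upper side of the bulk.

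Spread among arrays differed within the set. For PIP, LOC103347214, LTF and LCN2 the SD over the 3 DED arrays was 0.16 to 0.29, against 0.02 to 0.13 over the 3 naive arrays. For LYZ, DMBT1 and PIGR it was 0.01 to 0.05 in DED and 0.02 to 0.04 in naive. Over all probe sets the median SD was 0.10 in either group. Signal level differed as well: the 4 lower genes had means of 6.41 to 6.54 in DED and 7.64 to 11.09 in naive. LYZ, DMBT1 and PIGR had means of 10.22 to 11.68 over both groups. Whether the spread goes with the level or with the group was not tested. The 4 lower genes did not fall into one order over the DED arrays: PIP was lowest on the first, LOC103347214 and LTF on the third and LCN2 on the second. With any 1 array left out, the difference was -4.72 to -4.54 for PIP, -4.28 to -4.12 for LOC103347214, -1.61 to -1.46 for LTF and -1.26 to -1.01 for LCN2.

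Genes whose pattern over the 6 arrays was most like that of each member were found by the Euclidean distance between log2 values, after each gene's naive mean had been subtracted. Among the 7 themselves, PIP and LOC103347214 lay 0.86 apart, LTF and LCN2 0.88 apart, and LYZ, DMBT1 and PIGR 0.12 to 0.19 apart. The other genes named here were ranked with the 7 left out. With PIP so far down, the genes nearest to it by this distance are bound to be others that were strongly lower. The nearest 5 all were lower in DED. LOC100008796, a lipophilin, came first among them at a distance of 3.08 and differed by -2.86, at 6.70 ± 0.14 in DED and 9.56 ± 0.04 in naive (SD, n = 3). SCGB1D (lipophilin BL) at -2.69 and LOC100008793 (lipophilin AS) at -2.40 followed, then LOC100349251, annotated as C6orf58-like, at -2.21 and SCGB1D1 at -2.23. LOC100349251 and SCGB1D1 were dim in both groups, below the array medians. LOC100349251 was at 2.76 ± 0.24 in DED and 4.97 ± 0.28 in naive. SCGB1D1 was at 2.50 ± 0.24 in DED and a scattered 4.73 ± 0.59 in naive. Lipophilins are secretoglobins, small proteins of tears and other secretions. The distances of these 5 genes from PIP, 3.08 to 4.25, were wide, since each differed by less than PIP. With the 7 left out, LOC100008796, SCGB1D and LOC100008793 were also the nearest to LOC103347214, at distances of 2.34 to 3.10. As for PIP, that follows from how far LOC103347214 was lowered.

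LTF was nearest to LOC100354078, annotated as cytochrome P450 2F5-like, to DCT, an enzyme of melanin synthesis, and to ELAPOR1, at distances of 0.40 to 0.45 and with differences of -1.59, -1.63 and -1.70. LCN2 was nearest to TCN1, which encodes the vitamin B12 binder haptocorrin of exocrine secretions and neutrophil granules, at a distance of 0.26. TCN1 was at 4.90 ± 0.26 in DED and 6.20 ± 0.11 in naive (SD, n = 3), and on the DED arrays it was lowest on the second array, as LCN2 was. FRZB, a secreted Wnt antagonist, and C5H6orf58 came next at 0.40 and 0.41. For the 3 higher genes the nearest lay within 0.06, among them HS3ST1 for LYZ, TPI1, B2M and APOB for DMBT1, and CTSB, a lysosomal protease, for PIGR. With 6 arrays in 2 groups such a likeness mostly says that the difference between the groups was of similar size.

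Of 46 further proteins known from tears or lacrimal secretion, 27 were measured with a probe set of 1 symbol, and 19 were not analysed here. Of the 27, limma called 7 higher and 4 lower in DED at an adjusted p under 0.05, and 16 were not called. The median difference was 0.04, against -0.01 over all probe sets. AZGP1, the zinc-binding glycoprotein of tears and other secretions, was 2.1-fold higher, at 8.63 ± 0.01 in DED and 7.56 ± 0.09 in naive (SD, n = 3, with a limma adjusted p of 4.28e-04). DEFB1, an epithelial defensin that kills microbes, was 1.59-fold higher (adjusted p = 0.00355). The 4 lower genes were TCN1 at -1.30 (adjusted p = 0.00311), TF, the plasma iron carrier transferrin, at -0.65 (adjusted p = 0.00125), ZG16B, a lectin-like protein of exocrine granules, at -0.60 (adjusted p = 0.00266), and NUCB2 at -0.30 (adjusted p = 0.0466). LPO, the lactoperoxidase of tears, was at 5.54 ± 0.13 in DED and 5.49 ± 0.04 in naive, and CA6, the secreted carbonic anhydrase, at 4.91 ± 0.13 in DED and 4.84 ± 0.31 in naive, and neither passed. The number higher was 2 to 5 with any 1 array left out, and the number lower was 3.

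**Figure D3:**
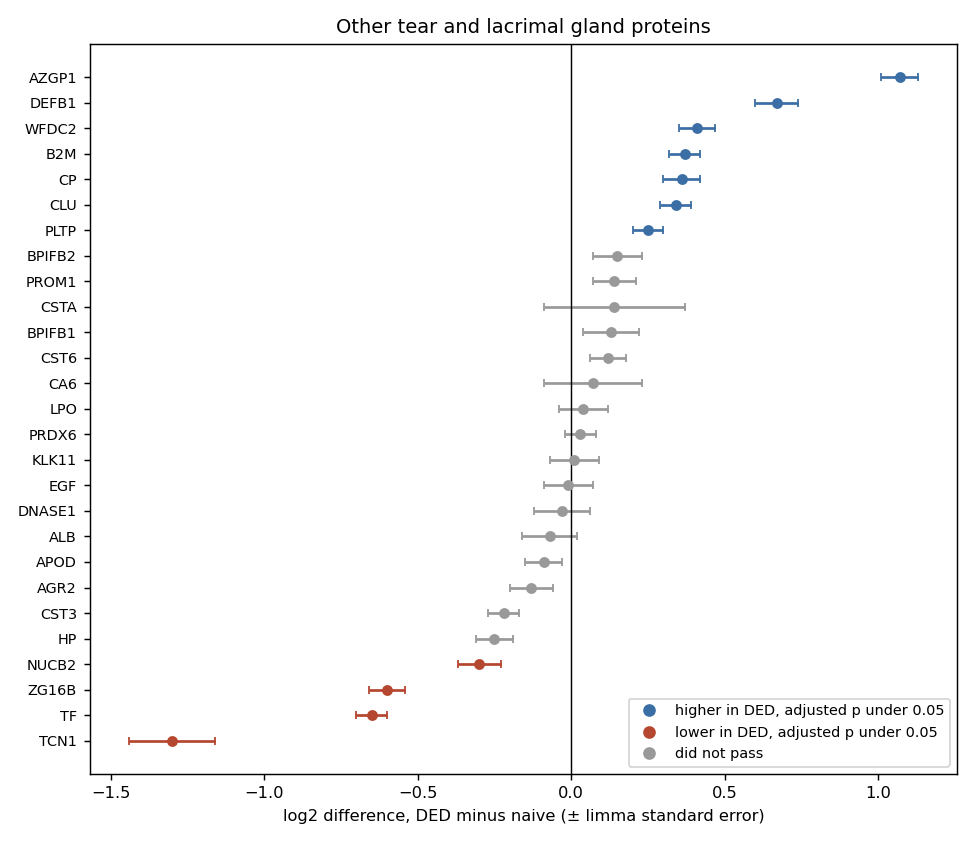
Log2 difference, DED minus naive (x axis), with limma's standard error for 27 other tear and lacrimal gland proteins, in the order of their differences. Genes in blue (7) passed as higher, genes in red (4) as lower and genes in grey (16) did not pass, and all lie between TCN1 at -1.30 and AZGP1 at 1.07.

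The measured relatives of the 7 genes by protein family did not move as one. Of 5 other lipocalins measured, limma called 1 higher and 1 lower, and 3 did not pass: ORM1, the acute phase protein orosomucoid, was 6.68-fold higher (9.23 ± 0.08 in DED and 6.49 ± 0.12 in naive, SD, n = 3, with a limma adjusted p of 2.92e-05), and RBP4, the retinol carrier, was 1.78-fold lower (10.13 ± 0.04 in DED and 10.96 ± 0.03 in naive; adjusted p = 6.48e-04). So LCN2 and the odorant-binding protein-like gene were lower in DED beside a lipocalin that rose. Of the 20 lipocalins listed, 15 had no probe set of 1 symbol under that name, among them LCN1, OBP2A and OBP2B. Genes named only by a LOC number could not join the family lists. Of 7 measured genes of the lysozyme list, none passed. The list includes LYSMD1, which is named for a lysin motif and is no lysozyme. The largest differences were those of LYG2 at -0.29 (adjusted p = 0.456) and LYZL6 at -0.13 (adjusted p = 0.391). Of 8 measured genes of the transferrin family and of iron binding, TF was the only one past the threshold. Of 12 other scavenger receptor cysteine-rich genes, relatives of DMBT1, 2 were higher and 10 did not pass. MSR1, a macrophage scavenger receptor, rose by 0.93 (adjusted p = 0.00301), and TMPRSS4, an epithelial serine protease, by 0.48 (adjusted p = 0.0043).

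Receptors and partners of these proteins were looked at next. Of 6 measured genes of receptors for LCN2 and LTF, 2 were higher and 4 did not pass. LRP2 (megalin), an endocytic receptor that takes up lipocalins, was 2.03-fold higher, at 8.17 ± 0.03 in DED and 7.15 ± 0.04 in naive (SD, n = 3, with a limma adjusted p of 3.36e-04), and CD14, the monocyte receptor for bacterial lipopolysaccharide that lactoferrin can bind, was 2.18-fold higher (adjusted p = 2.84e-04). SLC22A17, the other LCN2 receptor, stood at 7.07 ± 0.16 in DED and 7.17 ± 0.06 in naive. The paper also lists CUBN and the solute carriers SLC13A1, SLC5A12 and SLC12A1 as higher in DED. Whether the rise of LRP2 belongs with that of those genes, apart from LCN2, was not tested.

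The list for IgA transport also holds genes of antibody-secreting cells and other immunoglobulin receptors. Of its 12 measured genes, 3 were higher, none was lower and 9 did not pass. MZB1, a chaperone of antibody-secreting cells, rose by 0.49 (limma, adjusted p = 0.00761), FCMR, the IgM receptor, by 0.44 (adjusted p = 0.0421) and POU2AF1, a B cell coactivator, by 0.33 (adjusted p = 0.0195). JCHAIN, the chain that joins the IgA dimer PIGR carries, was at 12.63 ± 0.03 in DED and 12.85 ± 0.02 in naive (SD, n = 3), a difference of -0.22 that did not pass (adjusted p = 0.0673), while PIGR itself was higher. The genes of the list for traffic within cells, RAB11A, RAB3D, RAB25, AP1M2, MAL2 and YES1, did not pass. MZB1 and POU2AF1 also stand in the plasma cell list below. With any 1 array left out, 1 or 2 of the 12 were higher.

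Of 21 measured genes that are known to induce PIGR, LCN2 or LTF in other settings, 4 were higher, none was lower and 17 did not pass. They were IL1A, at 4.55 ± 0.08 in DED and 3.62 ± 0.28 in naive (SD, n = 3, with a limma adjusted p of 0.0124), IRF1, an interferon-induced transcription factor, at 0.58 (adjusted p = 0.0111), IL1B at 0.44 (adjusted p = 0.0474) and NFKBIZ, a nuclear cofactor of NF-kappaB, at 0.31 (adjusted p = 0.0216). With any 1 array left out, 0 to 3 of them passed. The cytokine genes IL17A, IL17F, TNF, IFNG, IL22 and IL4 of this list did not pass. They were dim, with group means from 2.77 for IFNG in naive to 5.45 for IL17F in DED, below the array medians. IL1A, which passed, was below those medians too. Whether the arrays detected these cytokines is not known. The paper also assayed IL17A by RT-PCR, which is not compared here. Of 16 measured hormone receptors and mediators of exocrine glands, JAK2, a kinase downstream of the prolactin receptor, was higher, by 0.38 (adjusted p = 0.0313), and 15 did not pass. Of the 6 fits without 1 array, JAK2 passed in 1, without the first naive array. The receptors for prolactin and androgen, hormones that induce PIP in human breast cells, had no probe set of 1 symbol and were not analysed here.

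Marker genes of the cell types that could make these proteins moved as well, and their part in the differences above was not tested. Of 18 measured genes of lacrimal and exocrine acinar cells, 6 were lower, none was higher and 12 did not reach the threshold, with a median of -0.21. A further 9 names of the list, among them AQP5, BHLHA15 and PRR4, had no probe set of 1 symbol. CREB3L1 also stands in the goblet cell list, so a lower gene here need not be one of acinar cells alone. ELAPOR1, a protein of the secretory pathway, was 3.26-fold lower, at 6.97 ± 0.15 in DED and 8.68 ± 0.05 in naive (SD, n = 3, with a limma adjusted p of 2.84e-04), SYTL2, an effector of granule release, fell by 0.58 (adjusted p = 0.00946), and CREB3L2 and CREB3L1, transcription factors of secretory cells, fell by 0.45 (adjusted p = 0.00884) and 0.37 (adjusted p = 0.0194). The summed linear signal of the list was 2940 to 3040 on DED arrays and 3620 to 3720 on naive arrays. ELAPOR1 makes up part of that gap, and the sum without it was not computed. SLC12A2, the brightest gene of the list, was at 9.81 ± 0.08 in DED and 9.82 ± 0.04 in naive. With any 1 array left out, 3 or 4 genes of this list were lower.

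Goblet cell genes moved both ways, with 2 higher, 3 lower and 7 not past the threshold of 12 measured. FCGBP, a mucus-associated protein, rose by 0.68 (limma, adjusted p = 0.00188) and AGR3 by 0.59 (adjusted p = 0.0185), whereas CREB3L1, ERN2 and the gel-forming mucin gene MUC5AC fell by 0.37, 0.35 and 0.24 (adjusted p = 0.0194, 0.04 and 0.0477). With any 1 array left out, 0 or 1 of the 12 were lower and 1 or 2 were higher. The median was -0.04 and the summed signal was 5190 to 5390 in DED and 5390 to 5470 in naive. Among 12 measured genes of the conjunctival surface epithelium, 3 passed as higher, 2 passed as lower and 7 stayed short of the threshold, with a median of -0.06. Between 1 and 2 of them were lower with any 1 array left out, and 4 or 5 were with quantile normalization once more, without the dimmest probe sets or with an intensity trend. KRT5, KRT4 and MUC4 rose by 0.59, 0.43 and 0.48 (adjusted p = 0.00496, 0.0145 and 0.00409), and the simple-epithelium keratins KRT18 and KRT8 fell by 1.26 and 0.37 (adjusted p = 0.00123 and 0.0202). The summed signal of this list was 15400 to 15900 in DED and 14500 to 14600 in naive. Of 3 measured corneal genes, CLU passed as higher, by 0.34 (adjusted p = 0.0152), and of 12 measured genes of meibomian and sebaceous glands, DGAT2, an enzyme of triglyceride synthesis, was higher by 0.32 (adjusted p = 0.0393) and FAR2, which makes wax alcohols, was lower, at -0.59 (adjusted p = 0.00612). Of the 6 fits without 1 array, CLU passed in 1 (without the second DED array) and DGAT2 in none.

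LTF and LCN2 are genes of neutrophils too, and LYZ of macrophages. Of 12 other neutrophil genes measured, 8 were higher in DED, none was lower and 4 did not pass, with a median of 0.82, and with any 1 array left out 5 or 6 were higher. S100A8 was 3.7-fold higher (limma, adjusted p = 1.98e-04), and the chemokine receptors CXCR1 and CXCR2 were 2.58-fold and 2.3-fold higher (adjusted p = 2.84e-04 and 0.00693). The summed signal was 3140 to 3270 on DED arrays and 2070 to 2160 on naive arrays. LTF and LCN2 thus were lower on the arrays where these neutrophil genes were higher. The granule genes CAMP, MMP8 and MPO did not pass: CAMP was at 5.03 ± 0.10 in DED and 4.88 ± 0.18 in naive, MMP8 at 3.49 ± 0.32 in DED and 3.46 ± 0.07 in naive, and MPO at 5.52 ± 0.10 in DED and 5.52 ± 0.04 in naive (SD, n = 3).

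Of 15 macrophage and monocyte genes measured, 10 were higher, none was lower and 5 did not pass, with a median of 0.55. MMP12, the macrophage elastase, was 2.95-fold higher (limma, adjusted p = 3.98e-04), and CD14, ITGAM and MSR1 were also higher, by 1.13, 1.11 and 0.93 on the log2 scale. The summed signal was 4700 to 4890 in DED and 3070 to 3170 in naive, a ratio of 1.55, beside ratios of 1.21 and 1.34 for the LYZ probe sets. Of 12 plasma cell genes, MZB1 and POU2AF1 were higher (1 or 2 of the list with any 1 array left out) and 10 did not pass, with a median of 0.21. Their summed signal was 9080 to 9410 in DED and 10100 to 10200 in naive, and without JCHAIN, the brightest of them, 2830 to 2940 in DED and 2730 to 2790 in naive. Whether immune cells took part in the values of LYZ, LTF or LCN2 was not tested.

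**Figure D4:**
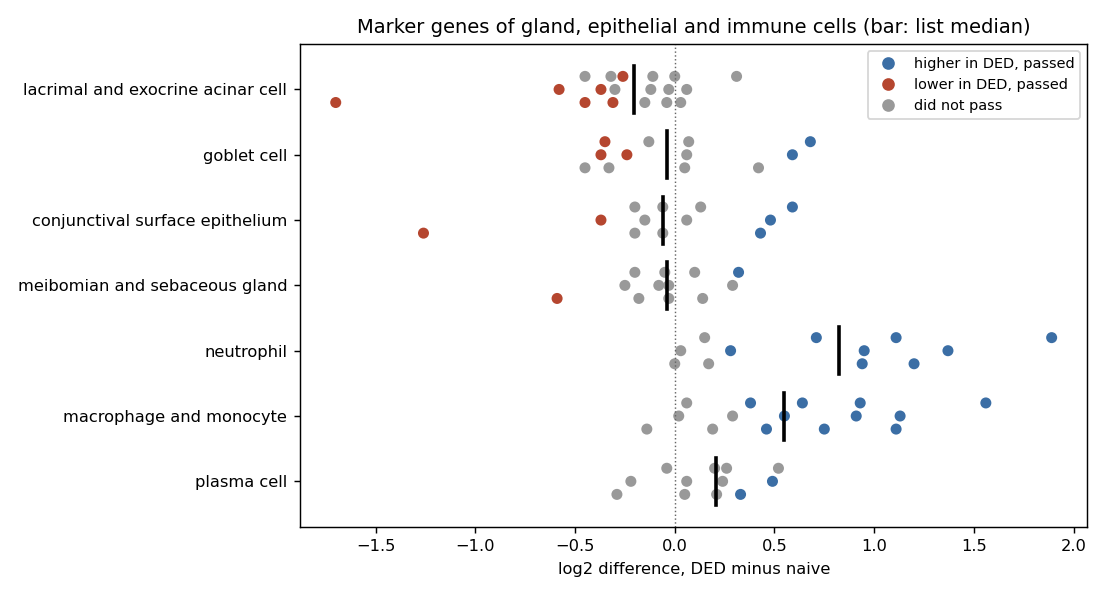
Log2 difference, DED minus naive (x axis), of each measured marker gene in 7 lists of cell types (rows), in blue where it passed as higher, in red where it passed as lower and in grey where it did not pass, with the list median as a black bar. The acinar list leans to lower values (median -0.21), and the neutrophil and macrophage lists lie higher (medians 0.82 and 0.55).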

How the data were processed

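RNA of full-thickness conjunctiva, pooled over animals, was hybridized to Affymetrix Rabbit Gene 1.0 ST arrays, 3 for DED and 3 for naive rabbits. The authors made the deposited log2 values with the RMA algorithm (background correction, quantile normalization and summary of the probes of a transcript) with Affymetrix's Transcriptome Analysis Console (version not given in the sources consulted). A change of all transcripts together is removed by that step. The table holds 23364 probe sets to 2 decimals. Each array is a pool of animals, so p-values measure the spread between pools. Precision is limited by the number of arrays: an exact permutation test of 3 against 3 arrays cannot go below p = 0.1.

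The difference, DED minus naive, came from limma 3.58.1 (lmFit, then eBayes; R 4.3.3) over all probe sets, with Benjamini-Hochberg adjustment and a threshold of 0.05, and checked on simulated data. Tables used pandas 2.3.3 and numpy 2.4.6 in Python 3.11.15. Gene symbols came from the platform annotation, where 397 probe sets have several symbols and 7172 are not listed and stay unnamed. By Entrez identifier, 6 of the 7 members were found in the RefSeq table of assembly mOryCun1.1. No sequence tables were used, so the planned protein and promoter features are not given.

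The members and the 17 gene lists were chosen with earlier results of these data known. Members are left out of the list counts. In each list up to 4 genes past the threshold with the largest differences are named, or the largest 2 where none passed. ZG16B, NUCB2, MUC5AC, KRT8, LPO, CA6, SLC22A17, JCHAIN, CAMP, MMP8 and MPO were named after their values were seen. SLC12A2, IL17A, IL17F, TNF, IFNG, IL22 and IL4 were too. The same holds for RAB11A, RAB3D, RAB25, AP1M2, MAL2 and YES1. So were the bound of 10 on the mean, the plasma cell sum without JCHAIN and the neighbouring genes. Genes most alike are the nearest 3 outside the members (5 for PIP). As alternatives, eBayes was run with an intensity trend or robustly, array weights were added, the replicate number was used as a block, and a one-way analysis of variance, as in the methods, was run. The values were median-centred or quantile-normalized again, the 30% dimmest probe sets or those without exactly 1 symbol were dropped, all probe sets of a symbol were averaged, and each array was left out in turn.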

Additional observations from a re-analysis of the deposited data

How the results depend on the processing

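PIP, LOC103347214, LTF and LCN2 were lower and past the threshold in all 16 alternatives, and LYZ, DMBT1 and PIGR were higher in all 16 but did not always pass. With quantile normalization once more the differences of LYZ, DMBT1 and PIGR were 0.22, 0.32 and 0.26, and LYZ did not pass (adjusted p = 0.0716). With the mean of both LYZ probe sets its difference was 0.35. With any 1 array left out, LYZ was at 0.25 to 0.30, DMBT1 at 0.36 to 0.39 and PIGR at 0.32 to 0.35, and the number of higher members was 1. The counts over all probe sets were 1030 higher and 629 lower, 1697 and 1332 with an intensity trend, 558 to 684 and 264 to 344 with any 1 array left out, and 1092 lower without the 30% dimmest probe sets. Other tear proteins were higher in 2 to 5 cases with an array left out.

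The replicate numbers gave no pairing: deviations of same-numbered arrays correlated at -0.015, 0.024 and -0.057. With the replicate block, which leaves few degrees of freedom, 490 probe sets were higher and 199 lower, 0 members and 2 other tear proteins passed as higher, and all 4 lower members passed. For the remaining lists 404 of 512 counts stayed within 1.5 times the reported one. A count of 0 that stayed 0 is among these, and many reported counts were 0, so the share overstates how stable the others were. The cause of these shifts was not tested.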

Other observations

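Genes near 6 of the 7 members were looked up in the order of the RefSeq table, taking on each side the nearest gene with a probe set of 1 symbol. Not all are adjacent: 5 and 14 other RefSeq genes lay between LOC103347214 and its neighbours. Between PIP and LLCFC1 there were 5. Of these 12 neighbours, 2 passed the limma test, both higher in DED. Over all probe sets 7.1% passed, 4.41% as higher, and nothing is read from the count. LTF lies beside CCRL2, a receptor of the chemokine receptor cluster, which was at 7.18 ± 0.07 in DED and 6.40 ± 0.07 in naive (SD, n = 3; adjusted p = 0.0017), while LTF was lower, and its neighbour on the other side, LRRC2, did not pass (adjusted p = 0.46). PIGR lies near FCMR and FCAMR, related immunoglobulin receptor genes. FCMR was higher, at 6.71 ± 0.10 in DED and 6.27 ± 0.14 in naive (adjusted p = 0.0421), and FCAMR was at 6.34 ± 0.12 in DED and 6.36 ± 0.01 in naive (adjusted p = 0.912). KEL, beside PIP, differed by -0.24 (adjusted p = 0.168), against -4.63 for PIP.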
